A study of Mus musculus with 7 samples.

Results

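The nuclear-encoded subunits of the 5 complexes of mitochondrial oxidative phosphorylation were followed in whole mouse uterus at diestrus and at estrus. They were chosen by gene symbol alone, as the Nduf subunits of complex I, the Sdh subunits of complex II, the Uqcr subunits of complex III, the Cox4 to Cox8 subunits of complex IV and the Atp5 subunits of complex V. The symbols matched 83 of the 31274 rows of the expression table: 36 in complex I, 4 in complex II, 8 in complex III, 18 in complex IV and 17 in complex V. The family was put forward with earlier results of the same estrus against diestrus comparison known, so its counts below are a description and support nothing about the family beyond it.

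All libraries came from the uterus of intact CD-1 mice (an outbred stock) aged 2 months that had received no exposure. Diestrus, the progesterone-dominated stage of the estrous cycle, was represented by 4 libraries and estrus, the stage that follows the preovulatory estrogen peak, by 3. Total RNA was made into Illumina TruSeq libraries, and the values were FPKM (fragments scaled to transcript length and to the mapped total of the library). Whether the libraries of a stage come from different mice is not stated in their labels, and p-values therefore measure only the spread among these libraries, which may be technical.

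Complexes I to IV pass electrons from NADH and succinate to oxygen, and complexes I, III and IV pump protons out of the mitochondrial matrix as they do so. Complex V lets the protons return and uses their flow to make ATP. Most subunits are encoded in the nucleus, and their genes are known targets of the transcription factors NRF1, the ETS factor GABP, YY1 and the estrogen-related receptor alpha, with PGC-1 family coactivators. The 13 mitochondrially encoded subunits had no row in the expression table under the symbols searched, so they could not be analysed.

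Promoter windows of 7 members are shown as examples, and they are not typical of the family. Of the 69 members with a promoter, 42 held none of these factors' motifs. The windows show several kinds of motifs (Atp5l, Ndufb6, Cox6a1) and a paired NRF1 motif (Ndufa11, Atp5g2 and again Cox6a1). They also show an estrogen-related receptor motif close to the start (Atp5g3), and no motif (Cox5a, the member with the smallest p-value). The examples were picked with the calls known, and all but Cox6a1 were called higher in estrus. Each is the 250 bases upstream of a RefSeq transcript start (GRCm38.p6), and capitals mark motif matches on either strand. In Atp5l, Ndufb6, Cox6a1, Ndufa11 and Atp5g2 the window adjoins the annotated gene, while in Atp5g3 and Cox5a it lies inside the gene's span, before a transcript that starts there.
Atp5l (chr9:44920743-44920992, minus strand): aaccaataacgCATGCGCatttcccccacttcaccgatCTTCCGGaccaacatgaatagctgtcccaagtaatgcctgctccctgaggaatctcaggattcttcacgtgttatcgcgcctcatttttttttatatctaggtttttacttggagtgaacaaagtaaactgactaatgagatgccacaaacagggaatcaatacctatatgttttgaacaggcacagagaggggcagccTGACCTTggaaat
Ndufb6 (chr4:40279422-40279671, minus strand): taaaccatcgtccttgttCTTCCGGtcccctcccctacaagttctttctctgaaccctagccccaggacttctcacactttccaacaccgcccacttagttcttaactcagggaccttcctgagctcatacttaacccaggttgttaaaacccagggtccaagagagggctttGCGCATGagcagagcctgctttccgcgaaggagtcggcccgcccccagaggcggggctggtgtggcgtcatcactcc
Cox6a1 (chr5:115348959-115349208, minus strand): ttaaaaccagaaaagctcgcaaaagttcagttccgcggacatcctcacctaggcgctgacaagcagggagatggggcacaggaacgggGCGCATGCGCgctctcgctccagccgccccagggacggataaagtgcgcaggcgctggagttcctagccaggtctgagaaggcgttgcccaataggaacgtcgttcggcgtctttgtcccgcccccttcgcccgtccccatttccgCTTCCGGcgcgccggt
Ndufa11 (chr17:56717512-56717761, plus strand): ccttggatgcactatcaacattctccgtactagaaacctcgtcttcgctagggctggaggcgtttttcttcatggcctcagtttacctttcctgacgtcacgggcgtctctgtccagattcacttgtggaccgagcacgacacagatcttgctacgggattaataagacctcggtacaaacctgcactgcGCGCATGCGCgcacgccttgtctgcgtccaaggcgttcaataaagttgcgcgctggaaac
Atp5g2 (chr15:102671048-102671297, minus strand): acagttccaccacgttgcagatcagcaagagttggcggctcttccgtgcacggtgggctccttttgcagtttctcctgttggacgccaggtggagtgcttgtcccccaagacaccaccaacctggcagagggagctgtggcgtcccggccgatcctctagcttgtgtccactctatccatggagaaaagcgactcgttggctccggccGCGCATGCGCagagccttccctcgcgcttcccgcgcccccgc
Atp5g3 (chr2:73911327-73911576, minus strand): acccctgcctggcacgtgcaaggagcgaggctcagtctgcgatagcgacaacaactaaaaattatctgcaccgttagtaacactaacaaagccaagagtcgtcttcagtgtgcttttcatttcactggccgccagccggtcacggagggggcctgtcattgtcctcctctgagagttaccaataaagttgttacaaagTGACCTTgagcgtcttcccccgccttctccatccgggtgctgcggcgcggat
Cox5a (chr9:57520982-57521231, plus strand): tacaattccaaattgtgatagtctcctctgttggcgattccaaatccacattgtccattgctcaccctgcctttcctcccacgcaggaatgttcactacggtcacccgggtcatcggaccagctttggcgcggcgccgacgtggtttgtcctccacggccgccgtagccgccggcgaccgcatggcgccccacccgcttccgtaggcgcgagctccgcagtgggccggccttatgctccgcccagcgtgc

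The motifs searched were GCGCATG for NRF1, CCGGAAG for ETS factors, AAGGTCA for the estrogen-related receptors and ATGGCGG for YY1. Atp5l was the single member with 3 kinds: an NRF1 match 239 to 233 bases upstream of the start, an ETS match at 212 to 206 and an estrogen-related receptor match at 13 to 7. Ndufb6 held an NRF1 match at 77 to 71 and an ETS match at 232 to 226. In Ndufa11, Atp5g2 and Cox6a1, 2 NRF1 matches on opposite strands overlapped within 1 palindromic run of 10 bases (60 to 51, 42 to 33 and 162 to 153 bases upstream), and Cox6a1 also held an ETS match at 16 to 10. Atp5k, not shown, held the same kind of overlap, and Atp5j, not shown, held 2 kinds, YY1 and ETS. Atp5g3 held an estrogen-related receptor match at 52 to 46, and the Cox5a window held none of the 4 motifs.

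Over the 69 members with a RefSeq promoter, 10 held the NRF1 motif (14.5%), against 6.23% of the 10632 tested genes with a promoter and 3.68% of all 27025 promoters. The ETS motif was in 12 (17.4%, against 15.1% and 7.83%), the YY1 motif in 5 (7.25%, against 4.25% and 2.58%) and the estrogen-related receptor motif in 5 (7.25%, against 3.38% and 4.70%). The classical estrogen response element is GGTCA and TGACC separated by 3 bases, and its 5-base arm is also part of the estrogen-related receptor motif. It was in none of the 69, in none of the 10632 tested genes with a promoter and in 0.0666% of all promoters. Its absence is thus not particular to the members. Of the 5 members with the estrogen-related receptor motif, Atp5g3, Atp5l, Ndufb2 and Ndufs5 were called higher in estrus by the test given in the next paragraph, and Ndufb4 was not. Of the 10 with the NRF1 motif 5 were called higher, of the 12 with the ETS motif 4 and of the 5 with the YY1 motif 1, beside 28 of the 69 with a promoter and 17.2% of all tested genes. No NRF1, ETS, YY1 or estrogen-related receptor motif was found in 42 of the 69, and 18 of these 42 were called higher. A match is only a run of letters, and binding was not measured here.

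Of the 80 members that could be tested, 34 were higher in estrus and 2 were lower. The threshold was a Benjamini-Hochberg adjusted p under 0.05 over all 13920 tested genes in limma, on log2(FPKM + 1), and a gene was tested when at least 3 libraries reached 1 FPKM. Over all tested genes 17.2% were called higher and 14% lower in estrus. The median log2 fold change (estrus minus diestrus) was 0.41 for the members, 65 of 80 being positive, and 0.05 for all tested genes. The groups did not overlap for 40 members with estrus above and for 4 with estrus below, where 21.9% and 18.7% of all tested genes did so. The 3 untested members were Cox6a2, below 1 FPKM in every library, and Cox7b2 and Cox8c, which are known from testis and were listed at 0 in all 7 libraries.

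The number of calls depended on single libraries. Without diestrus replicate 1 there were 42 members called higher (52.5%, against 20.8% of all tested genes). The count fell to 16 when diestrus replicate 2 was left out, to 16 for diestrus replicate 3 and to 14 for diestrus replicate 4, while the share of all tested genes fell to 12.8, 12.6 and 10.4%. On the estrus side, 24 calls were left when replicate 3 was omitted (30%, against 13.9% of all tested genes). Only 9 were left when replicate 1 was omitted (11.3% of members and 11.1% of all tested genes), and 5 when replicate 2 was (6.25% and 6.20%), so in these 2 fits the members' share was at the background. Quantile normalization, which forces the same distribution on each library, left 8 members called higher (10%) and 4 lower, with 12.1% of all tested genes higher, so there too the members' share was not above the background. The median log2 fold change of the members stayed between 0.33 and 0.48 over the 7 leave-outs and was 0.21 after quantile normalization. Cox5a, Cox7a2, Cox7b, Ndufa4 and Uqcrc2 were the 5 members called higher in every leave-out, and every other call of a member named below, in either direction, was lost when estrus replicate 2 was omitted.

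**Figure D1:**
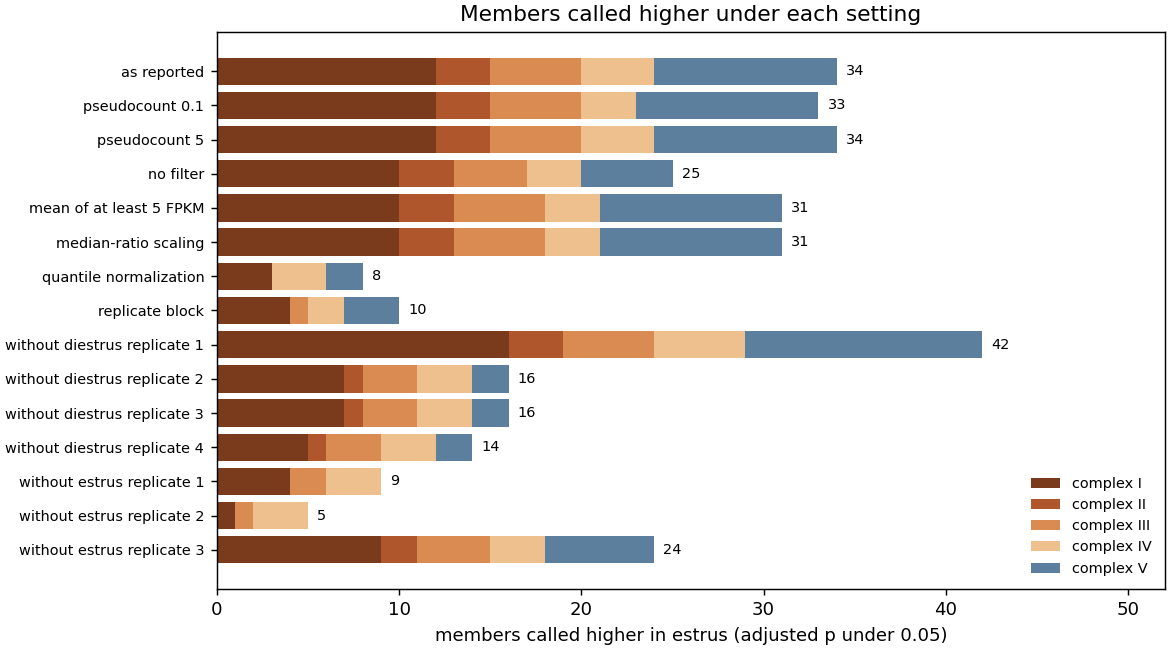
Number of members called higher in estrus (x axis, adjusted p under 0.05 in limma) under the reported setting and 14 alternatives (y axis), with bar segments for complexes I to V. The count runs from 34 as reported to 5 without estrus replicate 2 and 42 without diestrus replicate 1.

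The libraries themselves differed in ways that touch these values. Across genes, the rank correlation (Spearman) of diestrus replicate 1 was 0.916 to 0.944 with the other diestrus libraries and reached 0.919 with an estrus library, where the other diestrus libraries reached at most 0.846 to 0.874 with one. Its 10 most abundant rows held 34.2% of its summed FPKM, where the other diestrus libraries had 12.1 to 18.7% and the estrus libraries 33.7 to 38.2%. For 31 of the 80 tested members it lay between the other diestrus libraries and the estrus libraries. The share of all tested genes with that order was not taken, so the 31 cannot be read as particular to the members. The members' share of each library's summed FPKM was 1.70 to 1.87% in diestrus and 1.55 to 1.92% in estrus, so on that scale the groups overlapped. Relative depth, read from the smallest steps between low FPKM values and set to 1 in estrus replicate 1, ran from 0.92 to 1.36.

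Uterine cell type markers also moved with the stage. The summed FPKM of 12 epithelial markers was 1032 to 1452 in diestrus and 3495 to 3842 in estrus, with 8 of 12 higher. All 8 endothelial markers were lower in estrus (sums of 235 to 537 against 136 to 174 FPKM), as were 4 of 7 tested immune cell markers, with 1 higher, and 4 of 10 stromal markers. Of 3 tested ciliated cell markers 1 was lower, and 0 of 4 red blood cell markers passed in limma (0 at an unadjusted p under 0.05). The 10 smooth muscle markers (1 higher, 1 lower) summed to 3125, 5480.0, 4291 and 7717 FPKM in diestrus replicates 1 to 4 and to 3326, 4262 and 5850.2 in estrus replicates 1 to 3. The median over members of log2(FPKM + 1) minus the diestrus mean was 0.17, 0.0032, -0.093 and -0.083 in those diestrus libraries and 0.54, 0.43 and 0.28 in those estrus libraries. Within each stage, the library with the lowest smooth muscle sum had the highest members' median. The order did not hold throughout: diestrus replicate 4 had the highest sum, but the lowest median was in diestrus replicate 3. The endothelial and immune sums were also lowest in diestrus replicate 1 among diestrus libraries, but among estrus libraries they were lowest in replicate 2. The epithelial sums were 1243, 1067, 1452 and 1032 FPKM in diestrus replicates 1 to 4 and 3495, 3842 and 3515 FPKM in estrus replicates 1 to 3. The highest diestrus sum was thus in the library with the lowest members' median. The lowest estrus sum was in the library with the highest. In bulk tissue fewer cells of a type and less RNA per cell cannot be told apart, and the part of cell type markers in the members' differences was not tested.

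**Figure D2:**
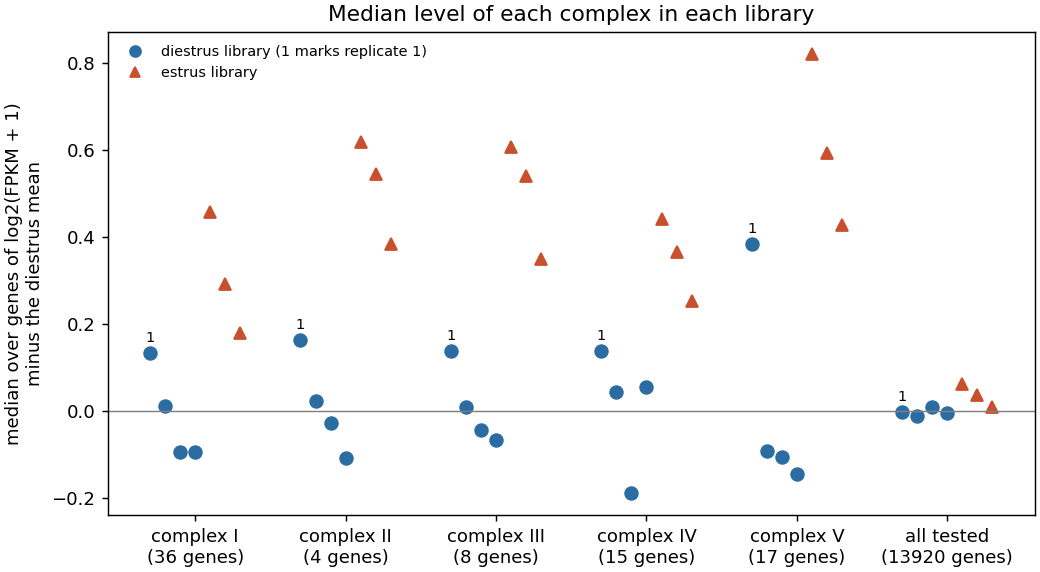
Median over the tested members of each complex, and over all tested genes, of log2(FPKM + 1) minus the diestrus mean of the gene (y axis), for 4 diestrus libraries (circles, 1 marks replicate 1) and 3 estrus libraries (triangles). Every estrus library lies above every diestrus library in each complex, and diestrus replicate 1 is the highest diestrus library in each.

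Complex V showed the largest median difference of the 5 complexes, and the difference between complexes was not tested. Of its 17 members 10 rose (58.8%, against 17.2% of all tested genes) and none fell in limma (13 higher and 0 lower at an unadjusted p under 0.05), with a median log2 fold change of 0.64. These 10 calls fell to 0 when estrus replicate 1 or 2 was left out. They fell to 2 without diestrus replicate 2, 3 or 4, and to 2 with quantile normalization. Its summed level was 2485 to 3383 FPKM in diestrus and 3754 to 4731 FPKM in estrus, a ratio of means of 1.53. The summed FPKM of the whole library was also higher in estrus, as given above, so the ratio is not particular to the complex.

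The rotor ring of the synthase is built from 1 peptide, subunit c, that 3 genes encode with different import sequences, and all 3 were higher in estrus. Atp5g3, the main source, stood at 308, 220.5, 200.4 and 175 FPKM in diestrus and 532, 467 and 365 FPKM in estrus. The estrus libraries all exceeded the highest diestrus library, and the log2 fold change was 1.02 (SE 0.23 and adjusted p = 0.016). Atp5g1 stood at 65.3, 43.6, 63.6 and 41.3 FPKM in diestrus and 114, 97.2 and 82.9 FPKM in estrus, again without overlap, with a log2 fold change of 0.88 (SE 0.21 and adjusted p = 0.0185). Atp5g2 was the least abundant at 12.9, 7.12, 7.09 and 7.23 FPKM in diestrus and 17.6, 13.03 and 15.4 FPKM in estrus, and its diestrus replicate 1 reached nearly the lowest estrus value. Its log2 fold change was 0.80 (SE 0.22 and adjusted p = 0.0308). Together the 3 genes gave 224 to 386 FPKM in diestrus and 464 to 663 FPKM in estrus, 1.97 times as much on average. The division among them moved little: Atp5g3 made up 73.9 to 81.3% of the sum in diestrus and 78.8 to 80.9% in estrus.

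The catalytic head also rose. Atp5b, the beta subunit that holds the catalytic sites and the most abundant member of the complex, stood at 555, 455, 452 and 424 FPKM in diestrus and 763, 794 and 668 FPKM in estrus, with no overlap. Its log2 fold change was 0.66 (SE 0.18 and adjusted p = 0.0275), and that of Atp5a1, the alpha subunit, was 0.55 (SE 0.15 and adjusted p = 0.0305). In the central stalk, which turns inside the head, Atp5c1 (gamma) rose by a log2 fold change of 0.49 (SE 0.13 and adjusted p = 0.0286). Atp5d (delta) did not pass the test, at 125, 183, 176 and 181 FPKM in diestrus and 158, 176 and 162 FPKM in estrus and a log2 fold change of 0.01, and neither did Atp5e (epsilon), at 0.55.

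Among the peripheral stalk subunits, which hold the head still, Atp5j (F6) and Atp5o (the oligomycin sensitivity conferring protein) rose with log2 fold changes of 0.67 and 0.64. Subunits b (Atp5f1, 0.34) and d (Atp5h, 0.41) did not pass. The small membrane subunit g, Atp5l, stood at 22.0, 8.89, 9.41 and 11.5 FPKM in diestrus and 28.6, 27.8 and 25.5 FPKM in estrus. Its diestrus replicate 1 was well above the other diestrus libraries and still below all estrus libraries, and the log2 fold change was 1.11 (SE 0.28 and adjusted p = 0.0243). Atp5j2 (subunit f) rose with a log2 fold change of 0.72, while Atp5k (subunit e) had 0.65 and missed the threshold (adjusted p = 0.0644). The symbol pattern also took Atp5s and Atp5sl, today named Dmac2l and Dmac2, which are not structural subunits of the synthase. Neither passed the test, at log2 fold changes of -0.06 and -0.18.

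**Figure D3:**
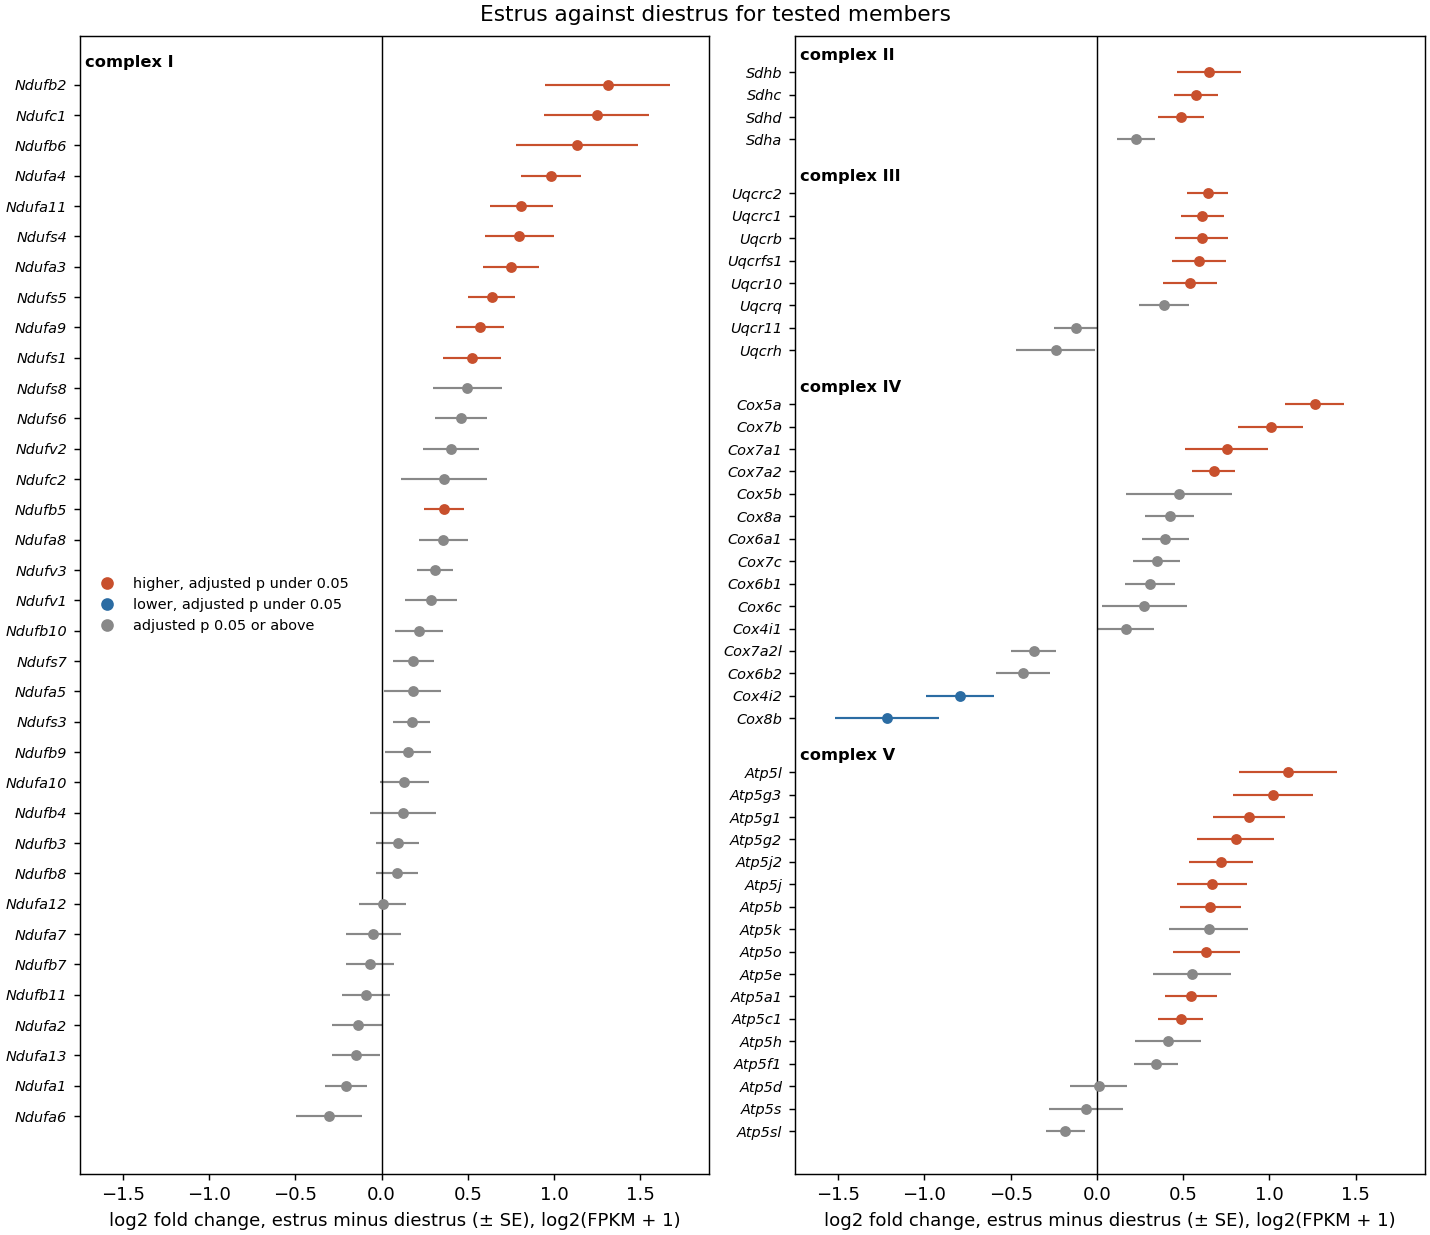
Log2 fold change of tested members, estrus minus diestrus on log2(FPKM + 1), with its standard error (x axis), ordered within complexes I to V; orange marks members called higher, blue lower, grey neither. Points run from -1.22 (Cox8b) to 1.31 (Ndufb2), and the 2 lower calls are both in complex IV.

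Complex III, the cytochrome bc1 complex, had 5 of 8 members higher and none lower in limma (6 and 0 at an unadjusted p under 0.05). Its 2 large core proteins rose together. Uqcrc2 stood at 113, 90.7, 102 and 102 FPKM in diestrus and 165, 158 and 154 FPKM in estrus, and Uqcrc1 at 111, 99.3, 91.8 and 89.9 FPKM in diestrus and 156, 157 and 138 FPKM in estrus. For both genes every estrus library exceeded every diestrus library, with log2 fold changes of 0.64 (SE 0.12 and adjusted p = 0.00801) and 0.61 (SE 0.13 and adjusted p = 0.0116). The Rieske iron-sulfur protein Uqcrfs1, which hands electrons on to cytochrome c1, rose with a log2 fold change of 0.59 (SE 0.16 and adjusted p = 0.0273). Cyc1, cytochrome c1 itself, lies outside the symbol pattern and stood at 82.5, 72.7, 54.1 and 54.9 FPKM in diestrus and 132, 118 and 97.3 FPKM in estrus, also without overlap. Its log2 fold change was 0.81 (SE 0.19 and adjusted p = 0.0183).

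Of the 5 small subunits of complex III, Uqcrb (0.61) and Uqcr10 (0.54) rose. Uqcrh, the acidic hinge protein and the most abundant member of the complex, did not pass the test, at 326, 417, 438 and 599 FPKM in diestrus and 428, 337 and 347 FPKM in estrus. Its groups overlapped, with the highest value in diestrus replicate 4, and the log2 fold change was -0.24 (SE 0.23). Uqcrh was the largest part of the sum, and the summed level of the complex overlapped between stages, at 1042 to 1221 FPKM in diestrus and 1186 to 1400 FPKM in estrus, although the median log2 fold change of its members was 0.56.

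Complex II, succinate dehydrogenase, has 4 subunits, and 3 rose (median log2 fold change 0.53). Its membrane anchors Sdhc and Sdhd hold the quinone site. Sdhc stood at 90.3, 77.9, 73.8 and 70.3 FPKM in diestrus and 122, 119.9 and 108 FPKM in estrus, and Sdhd at 103, 89.2, 98.8 and 90.5 FPKM in diestrus and 154, 132 and 118 FPKM in estrus. Neither overlapped between stages, with log2 fold changes of 0.58 (SE 0.13 and adjusted p = 0.0149) and 0.49 (SE 0.13 and adjusted p = 0.0293). Sdhb, the iron-sulfur subunit, stood at 101, 77.6, 61.2 and 63.5 FPKM in diestrus and 112, 117 and 122 FPKM in estrus and had a log2 fold change of 0.65 (SE 0.18 and adjusted p = 0.0337). Sdha, the flavoprotein that oxidises succinate, was also above in all estrus libraries, at 121, 132, 129 and 129 FPKM in diestrus and 142, 159.5 and 148 FPKM in estrus, but its smaller log2 fold change of 0.23 did not pass (adjusted p = 0.147) and was -0.049 after quantile normalization.

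Complex I, the NADH dehydrogenase, is the largest complex and was mixed. Of its 36 members 12 rose, none fell in limma (17 higher and 0 lower at an unadjusted p under 0.05), and the median log2 fold change was 0.30. The 7 core subunits, which include those that carry the flavin and the iron-sulfur clusters, all had positive values from 0.17 to 0.53, and 2 passed. Ndufs1, an iron-sulfur subunit, stood at 53.6, 37.6, 36.7 and 35.7 FPKM in diestrus and 64.1, 60.3 and 51.9 FPKM in estrus. Its groups overlapped through diestrus replicate 1, and it rose with a log2 fold change of 0.53 (SE 0.17 and adjusted p = 0.0481).

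Among the 29 accessory subunits, which surround the core, 10 rose and 7 had negative values, none of which passed. Ndufa3 stood at 195, 136, 139.8 and 142 FPKM in diestrus and 273, 252 and 242 FPKM in estrus, and Ndufs5 at 6.78, 5.38, 6.53 and 5.94 FPKM in diestrus and 11.3, 10.5 and 8.73 FPKM in estrus. In both all estrus libraries exceeded all diestrus libraries, with log2 fold changes of 0.75 (SE 0.16 and adjusted p = 0.0141) and 0.64 (SE 0.14 and adjusted p = 0.0134). The membrane-arm subunit Ndufc1 stood at 49.2, 20.6, 22.0 and 19.7 FPKM in diestrus and 62.8, 63.6 and 61.4 FPKM in estrus, where diestrus replicate 1 lay far above the other diestrus libraries. The fitted difference on the log2 scale was 1.25 (SE 0.30 and adjusted p = 0.0205). Ndufb2 had the largest log2 fold change of the family, 1.31 (SE 0.36 and adjusted p = 0.0308). Its groups overlapped, at 63.8, 33.9, 21.2 and 33.0 FPKM in diestrus and 61.9, 99.4 and 113 FPKM in estrus, where diestrus replicate 1 exceeded estrus replicate 1. Ndufb6 (1.13) overlapped as well, through the same diestrus library. The negative members ran from -0.05 for Ndufa7 to -0.31 for Ndufa6.

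Ndufa4 carries a complex I symbol but is today assigned to complex IV. It was the most abundant of the Nduf members, at 391, 319, 271 and 288 FPKM in diestrus and 639, 631 and 594 FPKM in estrus. All estrus values were far above the highest diestrus value, and means were 317 ± 53.1 FPKM (SD, n = 4) in diestrus and 622 ± 24.1 FPKM (SD, n = 3) in estrus. The log2 fold change was 0.98 (SE 0.18 and adjusted p = 0.00707). Its paralog Ndufa4l2, a gene known to respond to hypoxia and outside the symbol pattern, went the other way, at 6.15, 5.83, 7.33 and 7.94 FPKM in diestrus and 3.77, 3.59 and 3.32 FPKM in estrus and a log2 fold change of -0.77 (SE 0.14 and adjusted p = 0.00772).

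In complex IV, cytochrome c oxidase, members moved in both directions. Of the 15 tested, 4 rose (26.7%, against 17.2% of all tested genes) and 2 fell (13.3%, against 14%). The share that fell was thus near that of all tested genes. The median log2 fold change was 0.35, and the summed level was 1733 to 2118 FPKM in diestrus and 2428 to 2664 FPKM in estrus. Cox5a, a matrix-side subunit with a regulatory role, had the smallest p-value of all 80 members. It stood at 98.8, 100.4, 65.3 and 85.0 FPKM in diestrus and 198, 222 and 205 FPKM in estrus. The means were 87.4 ± 16.3 FPKM (SD, n = 4) in diestrus and 208 ± 12.6 FPKM (SD, n = 3) in estrus, the stages were well apart, and the log2 fold change was 1.26 (SE 0.17 and adjusted p = 0.00306). It was the one member still called under all 14 alternatives. On GRCm38.p6 Cox5a lies at chromosome 9, 57517328 to 57532427, and its promoter window above held no searched motif.

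Cox7b and Cox7a2, small membrane subunits, also rose. Cox7b stood at 70.8, 50.3, 62.7 and 57.1 FPKM in diestrus and 112, 158 and 100.03 FPKM in estrus, with estrus replicate 2 the highest, and had a log2 fold change of 1.01 (SE 0.19 and adjusted p = 0.0086). Cox7a2 stood at 86.0, 76.4, 73.1 and 69.4 FPKM in diestrus and 133, 123 and 111 FPKM in estrus and had a log2 fold change of 0.68 (SE 0.12 and adjusted p = 0.00796). The groups did not overlap for either gene. Cox4i1, the most abundant member of the complex and part of its regulatory surface, did not pass, at 410.2, 408, 329.7 and 445 FPKM in diestrus and 474, 431 and 429.6 FPKM in estrus. Its groups overlapped, and its log2 fold change of 0.17 was -0.056 after quantile normalization.

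The 2 members that fell are minor isoforms. Cox4i2, known as the hypoxia-induced alternative isoform to Cox4i1 and best known from lung, stood at 3.61, 1.853, 3.72 and 2.83 FPKM in diestrus and 1.18, 1.32 and 1.29 FPKM in estrus. Every estrus value was below every diestrus value, with a log2 fold change of -0.79 (SE 0.20 and adjusted p = 0.0218). It made up 0.452 to 1.12% of the summed Cox4 level in diestrus and 0.248 to 0.306% in estrus. Cox8b, known from heart, skeletal muscle and brown fat, stood at 2.58, 4.07, 1.02 and 3.01 FPKM in diestrus and 0.285, 0.595 and 0.635 FPKM in estrus, also with no overlap and with a log2 fold change of -1.22 (SE 0.30 and adjusted p = 0.0216). No estrus library reached 1 FPKM for Cox8b, so it passed the filter only through diestrus, where it is high. Its call is therefore a description and no support. Its share of the Cox8 sum was 0.385 to 1.23% in diestrus and 0.0688 to 0.162% in estrus. Both genes lay below 5 FPKM on average, where the size of a log2 fold change depends on the pseudocount: with a pseudocount of 0.1 it was -1.14 for Cox4i2 and -2.10 for Cox8b, and with 5 it was -0.35 and -0.46.

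Other minor isoforms did not follow 1 direction. Cox6b2, known from testis, lay lower in all estrus libraries (1.95 to 3.28% of the Cox6b sum in diestrus and 1.30 to 1.49% in estrus), but its log2 fold change of -0.43 did not pass (adjusted p = 0.0698). Cox7a1, like Cox8b a muscle and brown fat isoform, was higher in estrus, at 3.13, 3.10, 1.26 and 2.61 FPKM in diestrus and 4.34, 4.202 and 5.92 FPKM in estrus, with a log2 fold change of 0.75 (SE 0.24 and adjusted p = 0.0493). That call sat at the threshold (adjusted p = 0.0594 with a pseudocount of 0.1), and its share of the Cox7a sum overlapped between stages (1.69 to 3.89% against 3.16 to 5.05%). Cox7a2l, which promotes joining of complexes III and IV, lay lower in all estrus libraries, at 88.7, 75.1, 93.7 and 103 FPKM in diestrus and 70.7, 66.8 and 70.1 FPKM in estrus, with a log2 fold change of -0.37 (SE 0.13 and adjusted p = 0.0665) that missed the threshold. The ubiquitous Cox6a1, Cox6b1 and Cox8a lay higher in all estrus libraries without passing (log2 fold changes of 0.40, 0.31 and 0.42).

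Markers of tissues that use the minor isoforms were given for comparison. The 8 adipocyte markers summed to 30.6 to 150.1 FPKM in diestrus and 7.94 to 52.4 FPKM in estrus, overlapping, and Ucp1, which defines brown fat, lay between 0 and 0.0124 FPKM. The 10 skeletal and cardiac muscle markers summed to 53.0 to 159.6 FPKM in diestrus and 76.3 to 131 FPKM in estrus. In limma 0 of 6 tested adipocyte markers and 0 of 5 tested muscle markers passed, and 0 of each had an unadjusted p under 0.05. The myosins Myh1, Myh2, Myh4 and Myh6 reached at most 0.0373, 0.148, 0.0040 and 0.0193 FPKM. Nearly all of the muscle sum thus came from the other markers of that list, which were Acta1, Ckm, Actn3, Tnnt3, Mb and Actc1. The part of these cells in the levels of Cox8b and Cox7a1 was not tested.

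**Figure D4:**
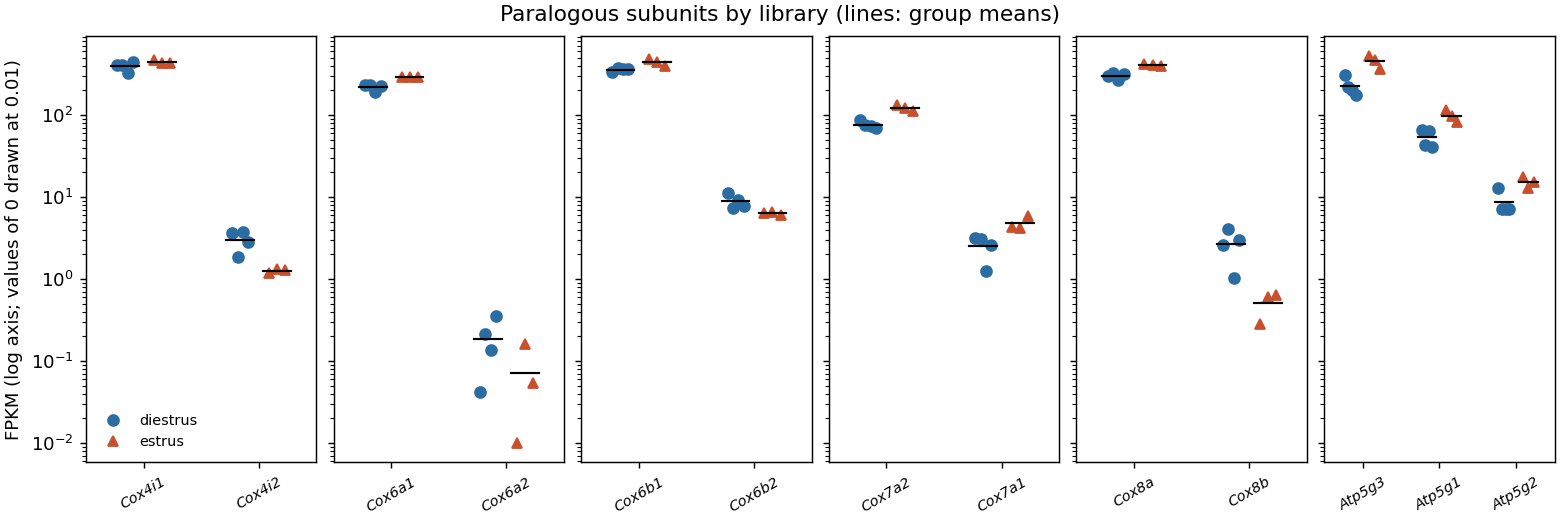
FPKM (log axis) of paralogous subunits in each of 4 diestrus (circles) and 3 estrus libraries (triangles), with group means as lines and values of 0 drawn at 0.01. Cox4i2 and Cox8b lie lower in estrus beside Cox4i1 and Cox8a, while all 3 Atp5g genes lie higher.

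The genes that build or feed the complexes moved unevenly. In limma 0 of 14 complex I assembly factors passed (1 higher and 1 lower at an unadjusted p under 0.05), and 0 of 2 for complex II (0 and 0) and 0 of 5 for complex III (1 and 0). Of the 18 tested assembly factors of complex IV, 5 rose (27.8%, against 17.2% of all tested genes) and none fell: Sco1, Cox14, Cox16, Coa5 and Cox15. Sco1, which delivers copper to the oxidase, stood at 4.38, 3.04, 3.34 and 2.84 FPKM in diestrus and 8.26, 8.35 and 7.99 FPKM in estrus, with the estrus libraries close together and all above diestrus, and had a log2 fold change of 1.08 (SE 0.15 and adjusted p = 0.00319). Of the 3 factors for complex V, Tmem70 rose (0.57). Of 7 nuclear subunit genes and relatives outside the symbol pattern, Cyc1 and the complex V gene 2010107E04Rik rose (0.87 for the latter) and Ndufa4l2 fell. Among these genes and those of the next paragraphs, Sco1, Esrra, Ckmt1, Etfa, Vdac2 and Ndufa4l2 were called under all 14 alternatives.

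The transcriptional regulators did not rise as a list: 3 of 18 were higher and none lower, with a median log2 fold change of -0.03. The share called higher, 16.7%, was near the 17.2% of all tested genes, so calls were no more frequent here than in the background. Esrra, the estrogen-related receptor alpha, stood at 10.96, 7.59, 6.52 and 7.23 FPKM in diestrus and 19.3, 22.2 and 26.2 FPKM in estrus. All estrus values were above the highest diestrus value, and the log2 fold change was 1.39 (SE 0.19 and adjusted p = 0.003). The coactivator Ppargc1b stood at 1.07, 1.18, 0.942 and 0.968 FPKM in diestrus and 2.18, 2.18 and 2.62 FPKM in estrus, close to the lower limit of testing, and had a log2 fold change of 0.70 (SE 0.13 and adjusted p = 0.00747). Its diestrus libraries alone would not have met the filter, so it was tested through estrus, where it is high. Yy1 rose less, with a log2 fold change of 0.44. Ppargc1a, Nrf1, Gabpa and Tfam did not pass, with log2 fold changes of -0.09, 0.05, -0.12 and 0.07.

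In the tricarboxylic acid cycle and the pyruvate dehydrogenase and carrier step, 9 of 20 genes rose (45%, against 17.2% of all tested genes) and 1 fell (5%, against 14%). Citrate synthase, Cs, stood at 104, 96.2, 96.4 and 86.1 FPKM in diestrus and 146, 148 and 128 FPKM in estrus, and rose with a log2 fold change of 0.55 (SE 0.12 and adjusted p = 0.015). Suclg1, a subunit of succinyl-CoA ligase, and Dlat, of pyruvate dehydrogenase, rose with 0.51 and 0.65. Idh2, the NADP-dependent mitochondrial isocitrate dehydrogenase, was the gene that fell, with -0.82. Of 13 tested carriers, channels and electron transfer proteins 7 rose (53.8%) and none fell. The mitochondrial creatine kinase Ckmt1, which passes the energy of ATP to creatine, stood at 42.3, 22.6, 25.4 and 14.8 FPKM in diestrus and 124, 169.6 and 232 FPKM in estrus, far above diestrus in all estrus libraries, with a log2 fold change of 2.74 (SE 0.35 and adjusted p = 0.0025). The channel Vdac2 and the electron transfer flavoprotein Etfa rose with 1.01 and 0.89. Epithelial markers were higher in the same libraries, as given above, and their part in the Ckmt1 difference was not tested.

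Other families of abundant housekeeping genes were read in the same way. The mitochondrial ribosome had 8 of 73 higher and 0 lower in limma (16 and 0 at an unadjusted p under 0.05), with a median log2 fold change of 0.25. The cytosolic ribosome had 7 of 74 higher and 0 lower (14 and 2 unadjusted), with a median of 0.16. For the proteasome, 14 of 37 were higher and 0 lower (23 and 0 unadjusted), with a median of 0.48. The oxidative phosphorylation members, with 34 of 80 higher and a median of 0.41, thus lay near the proteasome and above both ribosomes, and these differences between lists were not tested.

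**Figure D5:**
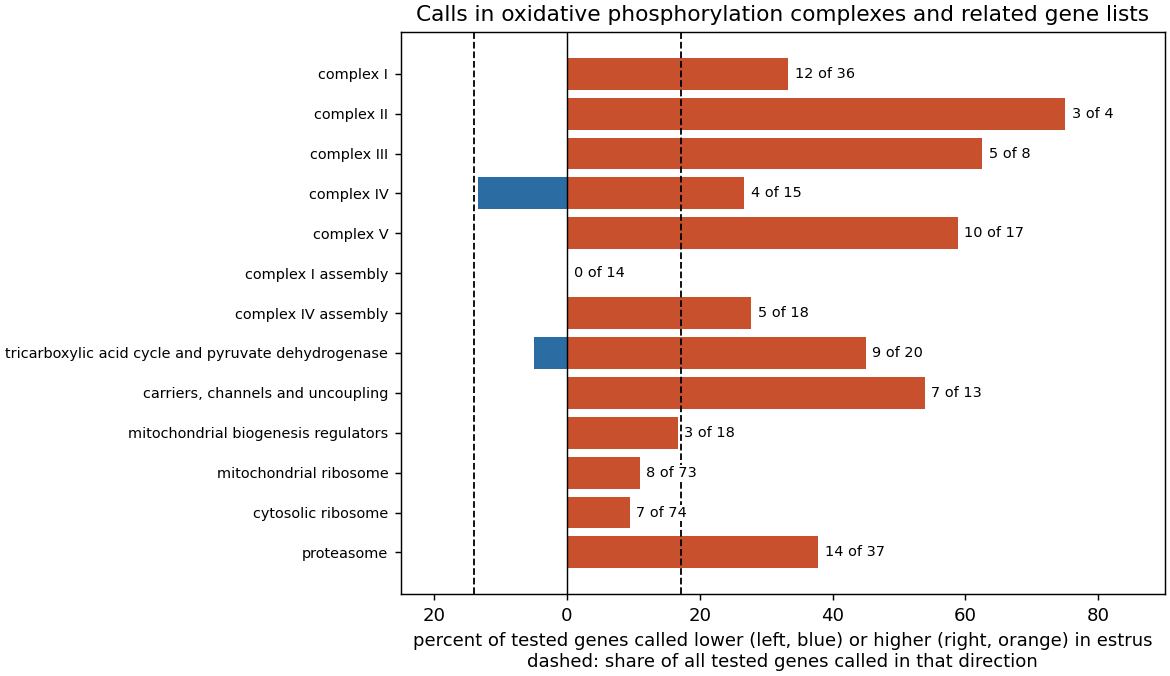
Percent of the tested genes of each list called higher (right, orange) or lower (left, blue) in estrus (x axis, adjusted p under 0.05 in limma), for the 5 complexes and 8 other gene lists (y axis); dashed lines mark the share of all tested genes, 17.2% higher and 14% lower. Complexes II, III and V have 3 of 4, 5 of 8 and 10 of 17 genes called higher, and complex I assembly factors 0 of 14.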

How the data were processed

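RNA sequencing values came from 7 uterus libraries, 4 at diestrus and 3 at estrus, grouped by their titles. The authors deposited FPKM values per gene symbol. RNA was extracted with an RNeasy kit with DNase, per the labels' protocols, and the submitters' processing notes name TopHat2 2.0.4 and mm10. The program behind FPKM and its gene annotation were not given in the sources used, so reads of near-identical copies and processed pseudogenes of these genes may be split in an unknown way. Read totals were not used.

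Values were log2-transformed with a pseudocount of 1 and tested with limma 3.58.1 in R 4.3.3 (trended empirical Bayes, two-sided, Benjamini-Hochberg over 13920 genes with 1 FPKM in at least 3 libraries). Log2 fold changes are on that scale, which understates low genes. The fit was tested on simulated data. A total of 0 columns of values matched no sample. The 14 alternatives changed 1 choice each (pseudocount, filter, scaling, replicate block, leaving out each library). The genes named are the smallest p-values and the most abundant member per complex, isoform groups, misassigned symbols and up to 3 genes per pathway list; Coa5, Cox15, Idh2, the coactivator and factor genes without a call, the role group members and the muscle myosins were named beyond that after their values were seen. A gene that the rule names is not reported here. Members and lists were chosen with earlier results of these data known. Symbols matched RefSeq GRCm38.p6 for 83 of 83 members and promoters for 69.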

Additional observations from a re-analysis of the deposited data

Results flagged for a closer look

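The 4 diestrus libraries were compared by Dixon's test, which sets the gap of the highest or lowest library to its neighbour against the group's whole range, in 81 members with values that vary and 26 other named genes. Of these 107 genes 14 had 1 library apart, 11 of them members, where chance alone flags about 1 in 20 groups, and none of the 5 complex sums did. The genes share libraries, so the 14 are not independent. Diestrus replicate 1 was the high library in 11 of the 14. In complex I these were Ndufa3 (195.3 FPKM), Ndufc1 (49.2 FPKM), Ndufs1 (53.6 FPKM), Ndufs4 (37.5 FPKM) and Ndufv2 (50.2 FPKM). In complex V they were Atp5e (505 FPKM), Atp5g2 (12.9 FPKM), Atp5j (194 FPKM), Atp5j2 (199 FPKM) and 2010107E04Rik (261 FPKM), which lies outside the symbol pattern, and the last was the channel Vdac2 (78.2 FPKM). The same library was the low one for Atp5d (125 FPKM). Diestrus replicate 3 was low for Cox6a1 (189 FPKM) and high for the complex III assembly factor Uqcc1 (16.3 FPKM). The part of the makeup of diestrus replicate 1 in its values was not tested.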

How the results depend on the processing

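Over the named genes, 649 values kept their direction and side of the threshold, 146 kept the direction and lost the call, 9 gained it and 15 reversed. Pseudocounts of 0.1 or 5, no filter and median-ratio scaling kept the number of members called higher within 1.5 times of 34. Requiring a mean of 5 FPKM left 0 called lower, since both lower genes were no longer tested. Quantile normalization gave 8 called higher and 4 lower, and medians of 0.21 over all members and 0.089, 0.29, 0.31, 0.10 and 0.34 for complexes I to V. Leaving out 1 library gave 5 to 42 called higher (6.25 to 52.5% of members, against 6.20 to 20.8% of all tested genes) and 0 to 3 lower, with fewer samples in each fit. The fit with a replicate block gave 10 called higher (12.5%, against 9.33% of all tested genes) and 0 lower. The shared replicate numbers were not taken as pairs: same-numbered libraries deviated together with correlations of 0.198, 0.0243 and 0.169, and only estrus replicate 1 correlated best with its own number. Reversals were confined to 5 uncalled genes. Sdhaf1 was -0.014 with pseudocount 5, -0.039 with median-ratio scaling, -0.055 with quantile normalization, -0.0071 with the replicate block and -0.233 to 0.218 over the leave-outs. Atp5s was 0.057 and Uqcc1 -0.0045, Sdha -0.049 and Cox4i1 -0.056 under quantile normalization, and Atp5s was -0.226 to 0.041 over the leave-outs. The cause of these changes was not tested. Read totals are unknown, so no interval for counting error is given.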
